A study of Mus musculus with 36 samples.

Results

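Expression of 43 genes of DNA replication and nucleotide supply was followed in Bhas 42 cells exposed to silica particles or to a tumour promoter. The members were taken from a list of mouse symbols that left out the MCM helicase genes. A probe counted for a member when its accession belonged to a listed gene and it was well above background on 3 of 4 arrays in at least 1 group. All 43 listed genes had such a probe, out of 32492 genes tested, and the probe used for each was well above background on all 36 arrays. No measured change entered the choice of probes, but the list itself was drawn up with earlier results of these data known.

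Bhas 42 cells are mouse fibroblasts of BALB/c 3T3 descent. Every group, controls included, carries a viral Ha-ras oncogene, and the line is used in cell transformation assays as 1 clone of already immortal cells. Exposure lasted 48 h, from day 4 of culture until RNA was taken on day 6. The 9 groups of 4 samples were water (2%), NM-203 (a synthetic amorphous silica) in doses of 1, 2 and 5 µg/cm², DE (diatomaceous earth, a natural amorphous silica) at 5 µg/cm², Min-U-Sil 5 (a crystalline silica) at 20 µg/cm², a separate set of water samples for Min-U-Sil 5, TPA (a phorbol ester) at 0.05 µg/ml, and DMSO (0.1%) as the solvent of TPA. The NM-203 and DE groups were compared with the first water group, Min-U-Sil 5 with its own water group and TPA with DMSO.

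DNA replication starts with licensing, in which the origin recognition complex, Cdc6 and Cdt1 load the MCM helicase onto origins. Cdc45, the GINS complex and the Dbf4-dependent kinase Cdc7 then turn the loaded helicase into a moving fork, where the polymerases, the Pcna clamp and its loader, replication protein A, Fen1 and Lig1 copy both strands. Ribonucleotide reductase, thymidine kinase and thymidylate synthase supply the deoxynucleotides, and many of these genes are transcribed at the entry into S phase under control of E2F transcription factors. Fibroblast cultures that become crowded normally leave the cell cycle and lower the expression of such genes.

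Promoter sequences were examined because the members changed together. RefSeq windows of 300 bases (250 before the transcription start and 50 after it, GRCm38.p6) were matched to 35 of the 43 members by symbol. The letters TTTCCCGC, TTTGGCGC, TTTGCCGC or TTTCGCGC, which are spellings of the E2F motif, were searched on both strands. They occurred in the windows of 12 of the 35 members (34.3%), against 3.78% of the 14133 tested genes with a window and 2.60% of all 27025 genes with one. The 12 were Cdc6, Cdt1, Clspn, Dtl, Gins3, Lig1, Orc1, Pola1, Pold1, Pole2, Rfc3 and Uhrf1, and 10 of their 13 matches lay within 60 bases of the start. CCAAT on either strand, which none of the E2F spellings contains, occurred in 19 member windows (54.3%) against 42.6% of tested genes. Median GC content was 64.3% in the member windows and 59.0% in those of tested genes. The 150 bases before the start are shown for Dtl, Orc1 and Cdc6, which were among the members with the largest changes, and for Gins3, which did not rise at the highest NM-203 dose. Each is written 5′ to 3′ along the gene's own strand, and capitals mark the E2F letters on either strand.
Dtl: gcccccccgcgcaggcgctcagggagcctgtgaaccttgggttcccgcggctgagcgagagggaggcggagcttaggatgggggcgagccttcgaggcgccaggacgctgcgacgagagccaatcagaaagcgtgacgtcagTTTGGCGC
Orc1: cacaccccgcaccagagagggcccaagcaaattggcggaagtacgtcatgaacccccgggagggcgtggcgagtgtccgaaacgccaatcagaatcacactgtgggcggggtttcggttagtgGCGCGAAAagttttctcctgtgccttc
Cdc6: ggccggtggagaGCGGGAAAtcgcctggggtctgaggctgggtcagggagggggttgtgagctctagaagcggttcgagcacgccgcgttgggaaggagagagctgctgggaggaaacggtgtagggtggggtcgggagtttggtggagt
Gins3: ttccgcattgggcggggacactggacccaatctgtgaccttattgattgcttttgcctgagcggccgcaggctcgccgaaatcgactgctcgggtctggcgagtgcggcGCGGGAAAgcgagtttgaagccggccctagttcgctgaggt
These stretches lie at chr1:191575545-191575694 (minus strand, Dtl), chr4:108579304-108579453 (plus strand, Orc1), chr11:98908001-98908150 (plus strand, Cdc6) and chr8:95633409-95633558 (plus strand, Gins3). Their matches begin at -8, -27, -138 and -41 from the start, in that order. A match describes the letters in a window and is not evidence of binding. Gins3 held the letters like the other 3 and had the lowest change of all 43 members after NM-203 at 5 µg/cm². The 12 members with the letters had a median log2 change of 1.90 there (range -0.15 to 2.89), and the 23 without them 1.68 (range 0.56 to 2.22). In the same order the medians were 1.63 and 1.26 with Min-U-Sil 5 and 1.37 and 0.82 with TPA. They were 0.95 and 0.87 after NM-203 at 2 µg/cm². These differences were not tested.

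Each sample gave 1 single-colour array. Levels are given as log2 of the processed intensity relative to the array's own 75th percentile, so a level is compared only with the level of the same gene on other arrays. That percentile lay between 531 and 1542 intensity units, 0 spots were saturated, and replicate arrays correlated at 0.953 to 0.993 across genes. Changes are differences between group means on the log2 scale with the standard error (SE) of a limma fit to all 36 arrays, 4 per group. A gene was called at a Benjamini-Hochberg adjusted p under 0.05 over all 32492 genes. Although 4 independent experiments are mentioned by the submitters, no label assigns an array to any of them, so p-values measure only the spread between these samples. All 10 fibroblast markers examined were well above background on all 36 arrays. So were 6 of 8 macrophage markers (Cd68, Csf1r, Itgam, Cd14, Lyz2 and Aif1), while Adgre1 was above it on 7 arrays and the leukocyte gene Ptprc on 0. Of 6 epithelial markers Krt8, Krt5 and Krt14 were above it on all arrays and Epcam on 0, and of 5 endothelial markers Pecam1 and Vwf were on all and Tek on 0.

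The comparison of NM-203 at 5 µg/cm² with water asked what the highest dose of this amorphous silica does to the cells. Of the 43 genes, 41 rose and 0 fell, and 37 of those that rose did so by at least 2-fold. Over all genes tested 14% rose and 4.21% did so by at least 2-fold. The median change of the 43 genes was 1.57 (2.98-fold), against 0.01 for all genes. On 42 of the 43 genes the 4 treated arrays lay above all 4 water arrays, which held for 15.9% of all genes. On the probes used, the rise was steepest for Clspn (7.41-fold), Dtl (6.65-fold), Cdt1 (6.12-fold), Orc1 (5.83-fold) and Cdc6 (5.14-fold). Among the genes called it was smallest for Rfc1 (1.47-fold). The order depends on the probe: other probes gave log2 changes of 1.66 for Clspn, 2.62 for Orc1 and 3.00 for Cdc6. That of Dtl gave 3.45, from low water readings of -7.77 to -6.32. Because whole cultures were measured, more cells in S phase and more RNA per cell cannot be told apart.

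**Figure D1:**
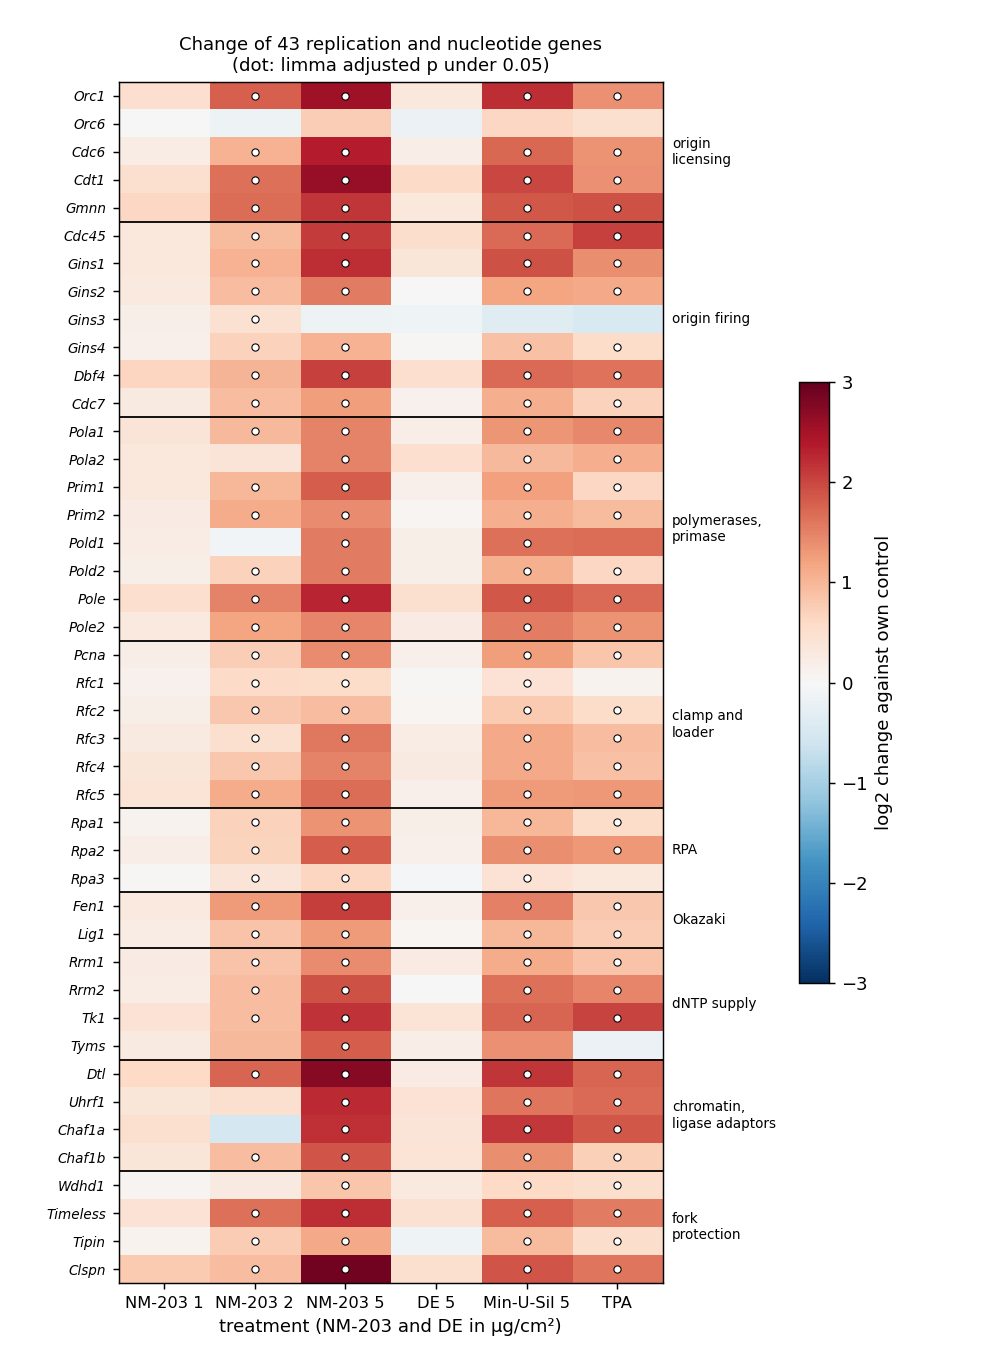
Log2 change of each of the 43 genes (rows, grouped by role) against its own control for the 6 treatments (columns); red is higher, blue lower, and a dot marks an adjusted p under 0.05. The NM-203 5 µg/cm² column has 41 dots, Min-U-Sil 5 40 and TPA 37, and the NM-203 1 µg/cm² and DE columns have 0.

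Among the licensing genes 4 of 5 rose after NM-203 at 5 µg/cm², with a median change of 2.36. Cdt1, which brings the helicase to the origin, read 1.82, 1.86, 1.51 and 1.83 on the 4 water arrays and 4.64, 4.30, 4.53 and 4.01 on the treated ones. Its change was 2.61 ± 0.18 (adjusted p = 2.5e-12), and the groups stood more than 2 log2 units apart at their nearest arrays. Orc1, the largest subunit of the origin recognition complex, read -2.98, -3.18, -3.49 and -3.27 in water and -0.77, -0.69, -0.58 and -0.70 after treatment. All 4 treated Orc1 values lay above every water value, for a change of 2.54 ± 0.23 (adjusted p = 2.33e-10). Cdc6, the loading ATPase, rose by 2.36 ± 0.18, and Gmnn, which encodes geminin, the inhibitor of Cdt1, rose by 2.15 ± 0.23. The loading factors and the gene of their inhibitor thus rose in the same cultures. Orc6, another origin recognition subunit, read 2.22, 2.22, 2.11 and 2.38 in water and 2.62, 3.17, 3.20 and 2.91 after treatment. Slide 4 held neither of these groups but 1 array of NM-203 at 2 µg/cm², on which Orc6 read 0.19. Orc6, whose SE comes from all groups, had a standard deviation of 0.11 in water, 0.27 after treatment and 1.28 in NM-203 at 2 µg/cm². Its arrays did not overlap, but its change of 0.74 ± 0.32 was not called (adjusted p = 0.0782), and it was called with an adjusted p of 0.000704 when the 6 arrays of slide 4 were left out.

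Of the 7 genes of origin firing 6 rose, and the median of the 7 changes was 1.55. Gins1, a GINS subunit, read -1.43, -1.68, -2.01 and -1.87 in water and 0.28, 0.53, 0.76 and 0.24 after NM-203 at 5 µg/cm². That is a rise of 2.20 ± 0.20 (adjusted p = 2.59e-10) with no overlap between the groups. Cdc45, the helicase cofactor, read -2.20, -2.19, -2.38 and -2.55 in water and -0.38, -0.34, 0.04 and -0.24 in treated cells, a rise of 2.10 ± 0.18. Dbf4, the activating subunit of the kinase, rose by 2.05 ± 0.24, and its catalytic partner Cdc7 by 1.26 ± 0.13. The remaining GINS subunits did not move alike: Gins2 rose by 1.55 ± 0.17, Gins4 by 1.05 ± 0.10, and Gins3 changed by -0.15 ± 0.16 (adjusted p = 0.541). Gins3 read 4.52, 4.70, 4.54 and 4.12 in water and 4.74, 4.22, 4.14 and 4.15 after treatment, so its groups overlapped and its highest treated value came from replicate 1 alone. Gins3 was the member whose estimate lay below 0 in all of the NM-203 5 µg/cm², DE, Min-U-Sil 5 and TPA comparisons.

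All 8 genes of the polymerases and primase rose, with changes from 1.41 for Prim2 to 2.29 for Pole. Pole, the catalytic subunit of the leading-strand polymerase epsilon, read 0.30, 0.25, 0.06 and 0.02 in water and 2.48, 2.37, 2.57 and 2.37 after NM-203 at 5 µg/cm². The treated arrays lay close together and far above water, for a change of 2.29 ± 0.17 (adjusted p = 1.22e-11). Prim1, the catalytic primase subunit, read 1.18, 0.97, 0.61 and 1.08 in water and 2.92, 2.91, 2.88 and 2.38 in treated cells. Replicate 4 was the low treated array, still above all water arrays, and the change was 1.81 ± 0.17 (adjusted p = 3.87e-10). Pola1 (1.48), Pola2 (1.50), Pold2 (1.55) and Pole2 (1.47), subunits of polymerases alpha, delta and epsilon, rose by nearly equal amounts. Pold1, the catalytic subunit of polymerase delta, read 0.95, 0.92, 0.77 and 0.66 in water and 1.39, 2.60, 2.88 and 2.65 after treatment. Its change was 1.56 ± 0.60, with a wide error that comes from the fit to all groups. The standard deviation of Pold1 was 0.13 in water and 0.67 after treatment. It was 2.37 in NM-203 at 2 µg/cm² and 0.81 in DMSO, groups outside this comparison. The Pold1 change was called with an adjusted p of 0.047. That call was lost under 11 of the alternatives, among them normexp background correction (adjusted p = 0.0786) and leaving out any 1 water replicate (0.0691 to 0.0919).

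The clamp Pcna and all 5 subunits of its loader rose. Rfc5 read 1.90, 1.75, 1.57 and 1.86 in water and 3.36, 3.37, 3.63 and 3.46 after NM-203 at 5 µg/cm². This loader subunit had a change of 1.68 ± 0.17 (adjusted p = 2.28e-09), and the groups lay well apart. Rfc3 read 1.60, 1.38, 1.17 and 1.47 in water and 2.96, 3.08, 3.08 and 2.80 in treated cells, a rise of 1.57 ± 0.11. Pcna itself rose by 1.41 ± 0.15, from 2.95, 2.79, 2.76 and 2.90 to 4.36, 4.13, 4.44 and 4.11. Rfc4 rose by 1.48 and Rfc2 by 0.92, while Rfc1, the large subunit of the loader, rose least, by 0.56 ± 0.12 (adjusted p = 0.00027).

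Replication protein A, which coats single-stranded DNA, has 3 subunits, and all were called. Rpa2 read -1.32, -1.15, -1.14 and -1.08 in water and 0.52, 0.65, 0.92 and 0.43 after NM-203 at 5 µg/cm², a rise of 1.81 ± 0.15. Rpa1 read 3.40, 3.51, 3.34 and 3.40 in water and 4.70, 4.66, 4.93 and 4.73 in treated cells, a rise of 1.34 ± 0.16. Rpa3 went from 2.09, 2.13, 2.06 and 2.08 to 2.76, 2.64, 2.88 and 2.66, a rise of 0.65 ± 0.11. No arrays of the groups overlapped for any of these subunits. The 95% interval of the Rpa3 change was 0.41 to 0.88 and that of Rpa2 1.49 to 2.12.

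Both genes of Okazaki fragment maturation rose. Fen1, the flap endonuclease, read 1.59, 1.46, 1.18 and 1.70 in water and 3.76, 3.64, 3.63 and 3.21 after NM-203 at 5 µg/cm² (change 2.08 ± 0.18, adjusted p = 1.14e-10). Lig1, the ligase that seals the fragments, read 2.26, 2.07, 2.06 and 2.23 in water and 3.51, 3.40, 3.51 and 3.35 in treated cells (change 1.29 ± 0.13). Neither gene had a treated array within the range of its water arrays.

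The deoxynucleotide supply genes had a median change of 1.86, and all 4 were called. Tk1, the thymidine kinase of the salvage pathway, read 0.77, 0.40, 0.24 and 0.26 in water and 2.56, 2.46, 2.80 and 2.52 after NM-203 at 5 µg/cm². It rose by 2.17 ± 0.19 (adjusted p = 1.28e-10), with the treated arrays close together and clear of water. Rrm2, the small subunit of ribonucleotide reductase whose level follows S phase, read 1.13, 0.99, 0.85 and 0.92 in water and 2.95, 2.78, 3.12 and 2.67 in treated cells, a rise of 1.91 ± 0.19. Its partner Rrm1 rose less, by 1.42 ± 0.10. Tyms, thymidylate synthase, read 2.40, 2.16, 1.88 and 2.02 in water and 3.67, 3.80, 4.27 and 3.99 after treatment. The Tyms groups did not overlap, but its SE of 0.66 was large against the change of 1.81 (adjusted p = 0.0341), and the call was lost in 7 alternatives, with adjusted p-values up to 0.0826. The SE comes from all 36 arrays, 1 of which, a DMSO array, read far above the rest for this gene, as described with TPA.

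All 4 genes of replication-coupled chromatin and ligase adaptors rose, with a median change of 2.21. Dtl, the adaptor through which a Cul4 ubiquitin ligase destroys Cdt1 at the clamp, read -1.13, -1.33, -1.53 and -1.29 in water and 1.37, 1.44, 1.63 and 1.22 after NM-203 at 5 µg/cm². It rose by 2.73 ± 0.22 (adjusted p = 5.31e-11), and no treated array came within 2 log2 units of a water array. Uhrf1, which carries DNA methylation over to the new strand, read 2.12, 1.84, 1.48 and 1.71 in water and 3.90, 3.85, 4.33 and 4.02 in treated cells, a rise of 2.24 ± 0.23. Chaf1b, a subunit of the histone chaperone CAF-1, rose by 1.89 ± 0.12. Its larger partner Chaf1a read 0.20, -0.02, -0.20 and -0.05 in water and 1.67, 2.36, 2.41 and 2.27 after treatment, a rise of 2.19 ± 0.52 (adjusted p = 0.00116).

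Fork protection genes rose by 0.84 to 2.89, and all 4 were called. Clspn, whose product claspin passes the stalled-fork signal to the checkpoint kinase, read -3.44, -4.33, -5.11 and -3.52 in water and -1.38, -1.19, -0.94 and -1.33 after NM-203 at 5 µg/cm². The water arrays were spread over more than 1 log2 unit while the treated arrays agreed closely, and the change was 2.89 ± 0.33 (adjusted p = 1.98e-08). Timeless read -0.07, -0.43, -0.57 and -0.36 in water and 1.89, 1.81, 1.95 and 1.81 in treated cells, a rise of 2.22 ± 0.14. Tipin, with which Timeless forms the fork protection complex, rose by 1.13 ± 0.13. Wdhd1, which tethers polymerase alpha to the helicase, rose by 0.84 ± 0.14 on the probe used, but its other probes gave 2.08 and 2.17. Besides Wdhd1, Clspn had another probe that differed by over 1 log2 unit, giving 1.66. All 20 other probes of the 19 members with several lay above 0.

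**Figure D2:**
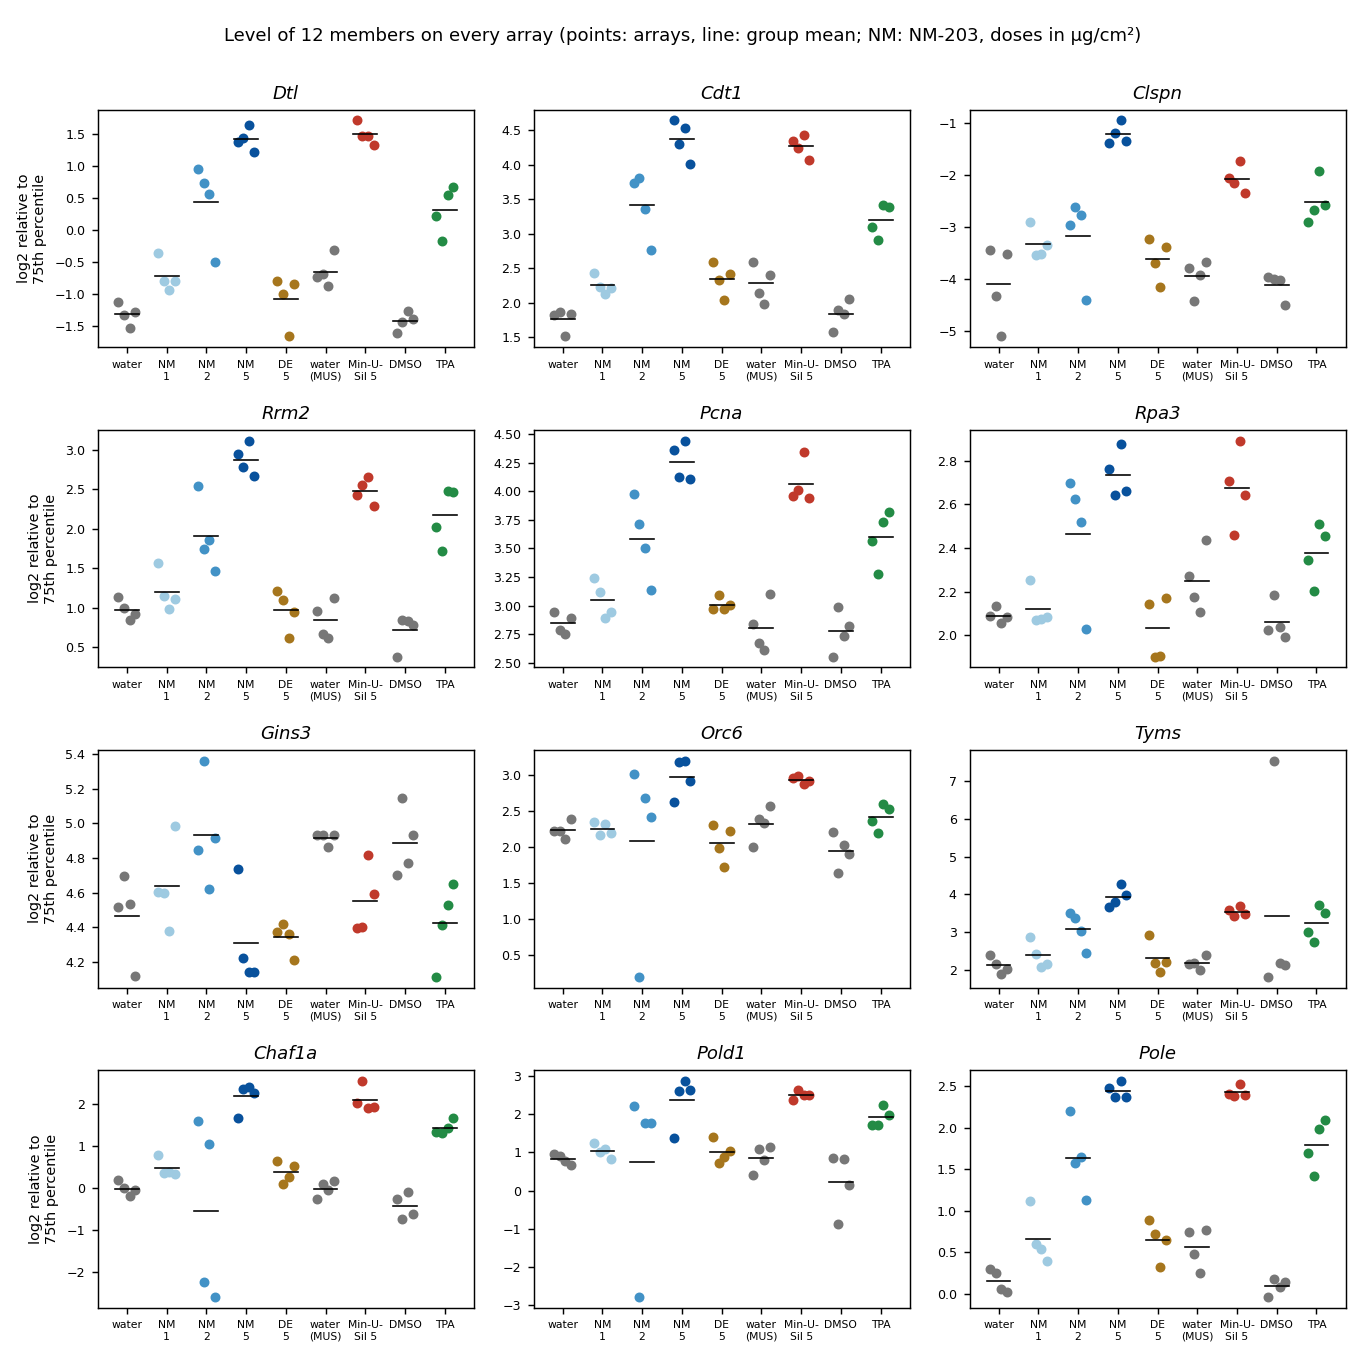
Level of 12 of the genes on every array (points, log2 relative to the array's 75th percentile) in the 9 groups, with the group mean as a line; MUS is Min-U-Sil 5. Dtl, Cdt1 and Pole separate the NM-203 5 µg/cm² arrays from water with no overlap, and Gins3 does not. Single arrays stand off in Orc6 and Pold1 (NM-203 at 2 µg/cm²) and in Tyms (DMSO), and Chaf1a splits evenly at 2 µg/cm².

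Arrays were spread over 5 slides scanned on 2 days. Within slide 1 all 43 genes were above water after NM-203 at 5 µg/cm² (median change 1.70, 2 treated arrays against 1). Within slide 3, 42 were (median 1.81, 1 array against 1). Over arrays, the median level of the 43 genes lay between 0.77 and 1.02 in water, between 2.38 and 2.74 after NM-203 at 5 µg/cm², between 2.36 and 2.53 after Min-U-Sil 5 and between 1.72 and 2.09 with TPA. Water for Min-U-Sil 5 (0.81 to 1.13) and DMSO (0.78 to 0.85) lay close to the first water group. Of the 10 fibroblast markers 7 fell after NM-203 at 5 µg/cm², where the summed linear level of all 10 was 625 to 837 against 1001 to 1124 in water. It was 782 to 864 against 1006 to 1424 with Min-U-Sil 5, where 7 fell, and 928 to 1015 against 1098 to 1227 with TPA, where 2 fell. Of all genes 19.1%, 13.9% and 6.78% fell in these comparisons, in that order. Of the 7 macrophage markers tested 3, 2 and 2 fell. Their summed level was 16.0 to 21.4 after NM-203 at 5 µg/cm² against 19.8 to 28.5 in water, 13.3 to 16.95 against 14.4 to 21.4 with Min-U-Sil 5, and 22.3 to 27.3 against 20.3 to 24.9 with TPA. The epithelial and endothelial markers summed to less than 1 on every array. The part of these markers in the results on replication genes was not tested.

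**Figure D3:**
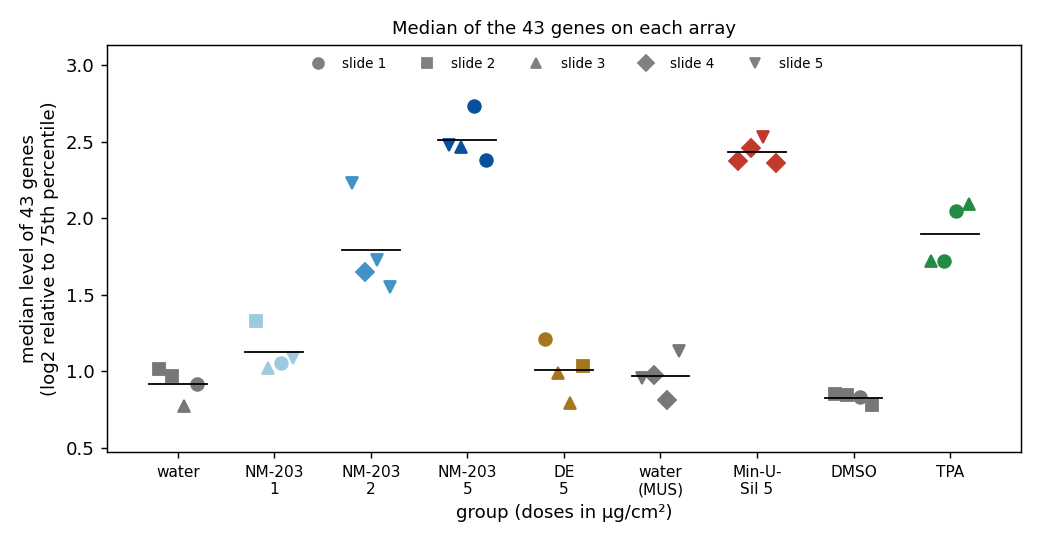
Median level of the 43 genes on each array (points, log2 relative to the 75th percentile; the shape gives the slide) by group, with the group mean as a line. NM-203 at 5 µg/cm² and Min-U-Sil 5 lie at 2.36 or above on all 8 arrays, TPA between 1.72 and 2.09, and all 12 control arrays at 1.13 or below.

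The lower NM-203 doses asked where on the dose range the rise begins. At 2 µg/cm², 36 of 43 genes rose and 0 fell, with a median change of 0.92 (1.89-fold). Of all genes 16.2% rose in that comparison, and the median of all genes was itself shifted by 0.11. On 33 genes the arrays did not overlap with water, against 14.7% of all genes. Orc1 rose most, by 1.80 ± 0.23, followed by Dtl (1.75 ± 0.22), Gmnn (1.69 ± 0.23), Cdt1 (1.66 ± 0.18) and Timeless (1.66 ± 0.14). All 7 firing genes, all 6 clamp and loader genes and all 3 replication protein A subunits were called at this dose. Of the other roles, 4 of 5 licensing, 6 of 8 polymerase, 3 of 4 nucleotide, 2 of 4 chromatin and 3 of 4 fork protection genes were called. For some of these genes the change against this water group depended on the probe. The other probe of Timeless gave 0.38, that of Cdc7 -0.07 (0.92 on the probe used) and that of Lig1 0.12 (0.86 on the probe used). The other Cdc7 probe had low water readings of -6.15 to -4.59. Of the 20 other probes of members 19 lay above 0 here. Clspn was called at 0.92 ± 0.33 (adjusted p = 0.0378), but the call was lost in 13 of the 22 alternatives. The Min-U-Sil 5 water was scanned on the same day as this dose. On the other Timeless probe all 4 treated arrays lay above that water (-0.63 to 0.34 against -0.99 to -0.86). The same held for Lig1 (-1.38 to -0.55 against -1.92 to -1.60) and for the probes used of these genes. Cdc7 overlapped that water on either probe.

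The 2 µg/cm² group and its water control shared neither a slide nor a scan day: water was scanned on day 1 and this dose on day 2. With scan day as a block, 26 of the 43 genes were called, and 22 of the 36 calls held in every alternative tried. Against the Min-U-Sil 5 water arrays, which share slides and day with this group, 32 genes rose and 0 fell (median 0.77), while 7.7% of all genes rose. Within slide 5, 42 genes lay above that water (median 0.64, 3 treated arrays against 2). Within slide 4, 39 did (median 0.97, 1 treated array against 2). The 2 water groups themselves differed in 9 of the 43 genes, 8 higher and 1 lower in the Min-U-Sil 5 water, where 18.8% of all genes were higher and 5.67% lower. The lower gene was Uhrf1, which read 1.46, 0.98, 0.85 and 1.20 there against 1.48 to 2.12 in the first water group.

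Single arrays bore on several members at 2 µg/cm². Pold1 read 2.23, 1.78 and 1.77 on replicates 1, 3 and 4 but -2.79 on replicate 2. Its change of -0.08 ± 0.60 became 1.10 (adjusted p = 0.00943) without that array. Orc6 read 0.19 on replicate 2 against 3.00, 2.68 and 2.41 on the others, and its change of -0.16 ± 0.32 became 0.47 without it (adjusted p = 0.0341). Replicate 2 also had the most outlier spots of the 36 arrays (380) and the lowest limma array weight (0.206). Chaf1a split evenly, with 1.60 and 1.05 on replicates 1 and 3 and -2.23 and -2.60 on replicates 2 and 4, for a change of -0.53 ± 0.52 (adjusted p = 0.489). At 1 µg/cm² the same genes spanned 0.82 to 1.25 (Pold1), 2.16 to 2.34 (Orc6) and 0.33 to 0.79 (Chaf1a). Gins3 read 4.84, 5.36, 4.62 and 4.92 and was called higher (0.47 ± 0.16, adjusted p = 0.0294), but its change was -0.045 with scan day as a block, and it read 4.93, 4.94, 4.86 and 4.93 in the Min-U-Sil 5 water of the same day.

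At 1 µg/cm² limma called 0 of the 43 genes, while 0.0431% of all genes were called higher. All 43 estimates lay above 0, with a median of 0.29 (1.22-fold), and 15 genes had an unadjusted p under 0.05, against 2.69% of all genes higher at that level. On 12 genes the arrays did not overlap with water, against 2.16% of all genes. The largest estimates were Clspn (0.78 ± 0.33), Dbf4 (0.63 ± 0.24), Gmnn (0.61 ± 0.23) and Dtl (0.60 ± 0.22). For Dtl the arrays read -0.36, -0.80, -0.94 and -0.80, above all 4 water arrays, with an adjusted p of 0.543. With array weights 1 of the 43 genes was called.

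Between doses, 35 genes were higher and 1 was lower at 5 than at 2 µg/cm² (median 0.81), where 11.7% of all genes were higher and 21.1% lower and the median of all genes was -0.14. From 1 to 2 µg/cm² 30 genes were higher and 0 lower (median 0.62), where 11% of all genes were higher and the median of all genes was 0.14. Group means rose from 1 to 2 to 5 µg/cm² for 38 of 43 genes, as they did for 17.3% of all genes. Clspn read -2.90, -3.54, -3.51 and -3.34 at 1 µg/cm² and -2.96, -2.61, -2.76 and -4.40 at 2 µg/cm². Its step from 1 to 2 µg/cm² was 0.14 ± 0.33 (adjusted p = 0.811) and that from 2 to 5 µg/cm² 1.97 ± 0.33 (adjusted p = 1.75e-05). On its other probe the changes against water were 0.29, 0.82 and 1.66 at the 3 doses. Uhrf1 read 2.72, 2.62, 2.21 and 1.55 at 2 µg/cm² and stepped up by 1.75 ± 0.23 from there to 5 µg/cm². Its values at 2 µg/cm² overlapped the first water group (1.48 to 2.12) but lay above the Min-U-Sil 5 water of the same day (0.85 to 1.46). On its other probe replicate 4 (-5.23) lay below that water (-4.68 to -4.17). Orc1, Timeless and Cdt1 stepped up from 1 to 2 µg/cm², by 1.31, 1.22 and 1.17, but the other Timeless probe gave changes against water of 0.39 and 0.38 at these doses. Gins3 was the gene that was lower at 5 than at 2 µg/cm² (-0.62 ± 0.16, adjusted p = 0.00258), a call absent under 4 alternatives, scan day as a block among them. On slide 5, 40 genes lay higher at 5 than at 2 (median 0.71) and 40 higher at 2 than at 1 (median 0.74). That slide holds 1 array at 5 µg/cm², 3 at 2 and 1 at 1, so each step rests on a single array at 1 end. The counts depend on the fit: with scan day as a block 22 genes were higher at 5 than at 2 and 15 at 2 than at 1, and in fits to the compared groups alone 20 and 0 were.

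**Figure D4:**
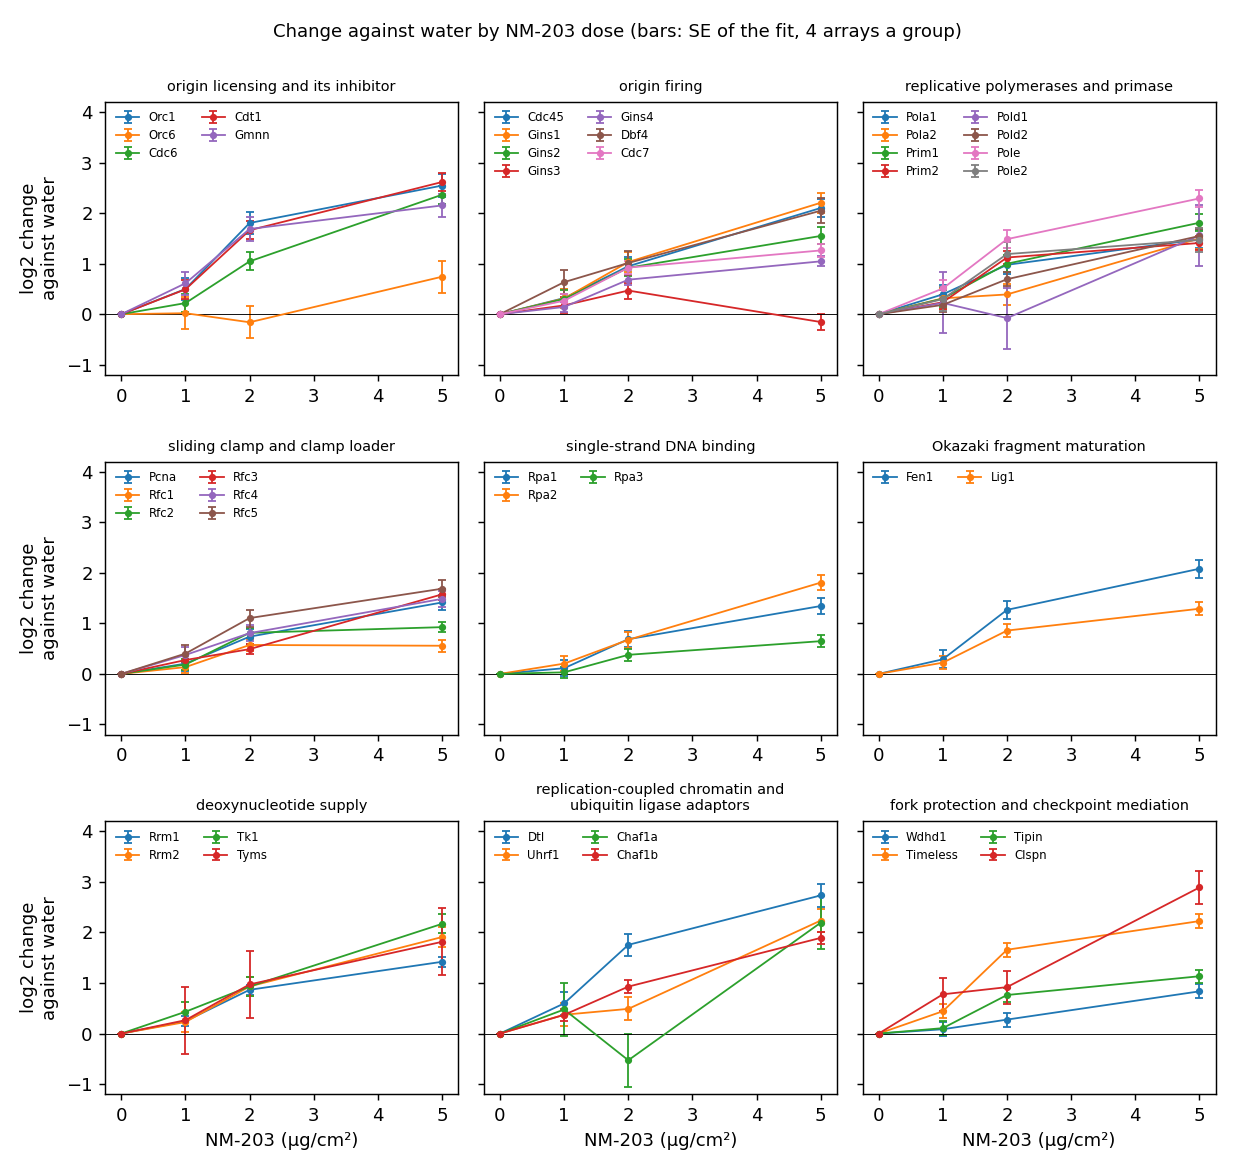
Log2 change against water (y) by NM-203 dose in µg/cm² (x) for each gene, in a panel per role, with the SE of the fit (4 arrays per group) as bars. Most lines rise at each dose; Gins3 ends at -0.15 at 5 µg/cm², and Orc6, Pold1 and Chaf1a dip below 0 at 2 µg/cm².

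DE at 5 µg/cm² allows a comparison of another amorphous silica at the same dose per area. With DE limma called 0 of the 43 genes, while 0.557% of all genes were called higher. The median change was 0.20 (1.15-fold), 9 genes had an unadjusted p under 0.05, against 4.04% of all genes higher at that level, and 8 genes did not overlap with water, against 2.59% of all genes. Cdt1 read 2.59, 2.33, 2.03 and 2.41 with DE, above all water arrays, for a change of 0.58 ± 0.18 (adjusted p = 0.138). Cdc45 changed by 0.54 ± 0.18 and Pola2 by 0.50 ± 0.21, neither called. Set directly against DE, NM-203 at 5 µg/cm² gave higher levels of 40 genes and lower levels of 0 (median 1.48), where 14% of all genes were higher. Dtl differed by 2.49 ± 0.22 (adjusted p = 5.75e-10) and Clspn by 2.41 ± 0.33 (6.91e-07). The DE arrays of Dtl lay between -1.67 and -0.80, against 1.22 or more on every NM-203 array.

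Min-U-Sil 5 at 20 µg/cm² was the crystalline silica of the series, tested at 1 dose. Of the 43 genes 40 rose and 0 fell against its own water, with a median change of 1.33 (2.52-fold) beside 0.04 for all genes, of which 11.6% rose. The arrays did not overlap on 40 genes, against 11.8% of all genes, and 32 genes rose by at least 2-fold, against 3.28%. On the probes used, Orc1 rose most (2.21 ± 0.23): it read -2.57, -2.55, -2.83 and -2.52 in water and -0.18, -0.26, -0.53 and -0.65 with the particles. Dtl followed (2.15 ± 0.22), from -0.74, -0.70, -0.87 and -0.32 to 1.71, 1.47, 1.47 and 1.33. In both genes the lowest treated array was more than 1 log2 unit above the highest water array. Chaf1a (2.12 ± 0.52), Cdt1 (2.00 ± 0.18), Gins1 (1.90 ± 0.20) and Clspn (1.89 ± 0.33) came next. Here too the order depends on the probe: other probes gave 0.99 for Clspn, 2.91 for Dtl and 2.56 for Cdc6. That of Dtl rose from low water readings of -7.61 to -6.21. Wdhd1 rose by 0.60 on the probe used and by 1.99 and 2.01 on its others. By role the medians were 1.86 for licensing and for chromatin genes, 1.51 for nucleotide supply, 1.37 for fork protection, 1.28 for polymerases, 1.26 for Okazaki maturation, 1.19 for firing, 1.13 for the clamp and loader and 1.00 for replication protein A.

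The 3 genes not called with Min-U-Sil 5 were Orc6, Gins3 and Tyms. Gins3 read 4.39, 4.41, 4.82 and 4.59, all below its water arrays (change -0.36 ± 0.16, adjusted p = 0.0984), and with normexp correction and quantile normalization 1 member was called lower. Orc6 read 2.95, 2.99, 2.87 and 2.91 against 1.99, 2.39, 2.33 and 2.57 in water (0.61 ± 0.32, adjusted p = 0.186). Tyms read 3.58, 3.41, 3.70 and 3.47 against 2.14, 2.17, 1.99 and 2.39 (1.37 ± 0.66, adjusted p = 0.146), with no overlap, and was called when its probes were averaged (1.44, adjusted p = 0.0035). Pold1 was called at 1.65 ± 0.60 (adjusted p = 0.0431). Within slides 4 (3 treated arrays against 2) and 5 (1 against 2), 42 genes each lay above water, with medians of 1.41 and 1.31.

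TPA, the phorbol ester that serves as promoter in transformation assays, was compared with DMSO. With TPA 37 genes rose and 0 fell, with a median change of 1.10 (2.14-fold) beside -0.04 for all genes, of which 4.89% rose. The arrays did not overlap on 39 genes, against 7.98% of all genes, and 21 genes rose by at least 2-fold, against 1.71%. On the probes used, Cdc45 rose most (2.04 ± 0.18), reading -2.73, -2.47, -2.25 and -2.65 in DMSO and -0.55, -0.70, -0.42 and -0.25 with TPA. Tk1 rose by 2.02 ± 0.19, with TPA arrays at 1.91, 1.80, 2.41 and 2.58 and DMSO arrays between 0.03 and 0.29. On these probes no TPA array of either gene came within 1 log2 unit of a DMSO array. Gmnn (1.91 ± 0.23), Chaf1a (1.86 ± 0.52), Dtl (1.74 ± 0.22) and Pole (1.70 ± 0.17) followed. This order depends on the probe: the other Cdc45 probe gave 1.30, and those of Uhrf1, Orc1 and Dtl gave 2.10, 2.09 and 2.05. The Dtl value came from low DMSO readings of -7.07 to -6.75. Wdhd1 rose by 0.53 on the probe used and by 1.97 and 1.57 on its others. The role medians were 1.71 for chromatin genes, 1.36 for licensing, 1.22 for polymerases, 1.15 for nucleotide supply, 1.14 for firing, 1.05 for fork protection, 0.85 for the clamp and loader, 0.79 for Okazaki maturation and 0.56 for replication protein A. On slide 1, which holds 2 TPA arrays and 1 DMSO array, 42 genes lay higher with TPA (median 1.00).

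Genes not called with TPA were Orc6, Gins3, Pold1, Rfc1, Rpa3 and Tyms. Rfc1 had a change of 0.10 ± 0.12 (95% interval -0.14 to 0.33), the smallest of any clamp or loader gene. Gins3 read 4.12, 4.42, 4.53 and 4.65 with TPA, all below the DMSO arrays at 4.70, 5.14, 4.77 and 4.93 (change -0.46 ± 0.16, adjusted p = 0.057). Rpa3 changed by 0.32 ± 0.11 (adjusted p = 0.07). Tyms read 3.01, 2.75, 3.71 and 3.50 with TPA and 1.82, 7.54, 2.19 and 2.11 in DMSO, where replicate 2 stood apart. Its change of -0.17 ± 0.66 became 1.20 (adjusted p = 0.00115) without that array, and the gene's other probe gave 1.33. Pold1 also had 1 low DMSO array, replicate 2 at -0.87 beside 0.85, 0.82 and 0.14, and a change of 1.69 ± 0.60 (adjusted p = 0.0701). Orc1 had 1 high DMSO array, replicate 1 at -2.38 beside values of -3.59 to -3.55. It rose by 1.37 ± 0.23, and its other probe gave 2.09.

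The same 37 genes were called higher in the NM-203 5 µg/cm², Min-U-Sil 5 and TPA comparisons, which share no control arrays. They were 37 of the 41, 40 and 37 genes called in each, and 3.29% of all genes were called higher in all 3. Across the 43 genes the changes after NM-203 and Min-U-Sil 5 correlated at r = 0.95 (0.76 over 32492 genes). NM-203 and TPA correlated at 0.77 (0.56 over all) and Min-U-Sil 5 and TPA at 0.84 (0.54 over all). Genes are not independent replicates, and each comparison's points share its arrays. The doses of the 3 agents were not matched.

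Whether the size of the rise differed was tested as a difference between effects, each against its own control. NM-203 at 5 µg/cm² raised 16 of the 43 genes more than TPA did and 0 less (median difference 0.52), where 7.73% of all genes differed in that direction. The largest called differences were Fen1 (1.27 ± 0.25), Cdt1 (1.25 ± 0.26), Prim1 (1.18 ± 0.23), Orc1 (1.17 ± 0.32) and Chaf1b (1.17 ± 0.18, adjusted p = 1.88e-05). The Orc1 value includes the high DMSO replicate 1 (-2.38), and its other probe gave 2.62 after NM-203 and 2.09 with TPA. Fen1 read 1.40, 1.60, 1.42 and 1.48 in DMSO and 2.22, 2.01, 2.43 and 2.49 with TPA. All its TPA arrays thus lay above DMSO but below the 3.21 to 3.76 seen with NM-203. Cdt1 read 3.10, 2.91, 3.41 and 3.39 with TPA, again below the 4.01 to 4.64 of NM-203, and 1.57 to 2.05 in DMSO. Cdc6 (1.01 ± 0.25) and Dtl (0.99 ± 0.32, adjusted p = 0.0311) also differed, Dtl not under 11 of the alternatives, and the other 9 called genes differed by 0.49 to 0.93. Tk1 was not called different (0.15 ± 0.26, 95% interval -0.39 to 0.69). With arrays centred on the median of the tested genes 7 of the 43 genes were called, in place of 16.

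Against TPA, Min-U-Sil 5 raised 1 gene more, Chaf1b (0.68 ± 0.18, adjusted p = 0.0161), where 3.33% of all genes differed in that direction. Chaf1b rose by 1.40 ± 0.12 with Min-U-Sil 5 and by 0.72 ± 0.12 with TPA. The call was absent with arrays centred on the median (adjusted p = 0.376) and without the arrays of slide 4 (0.21). Between NM-203 at 5 µg/cm² and Min-U-Sil 5 at 20 µg/cm² limma called 0 of the 43 genes (0.0923% of all genes higher), and 10 had an unadjusted p under 0.05, all with the larger estimate for NM-203, against 2.95% of all genes. The widest gap among them was Clspn, at 1.00 ± 0.46 (95% interval 0.06 to 1.94, adjusted p = 0.613). Since the doses differed 4-fold, the values are given side by side and say nothing about potency.

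**Figure D5:**
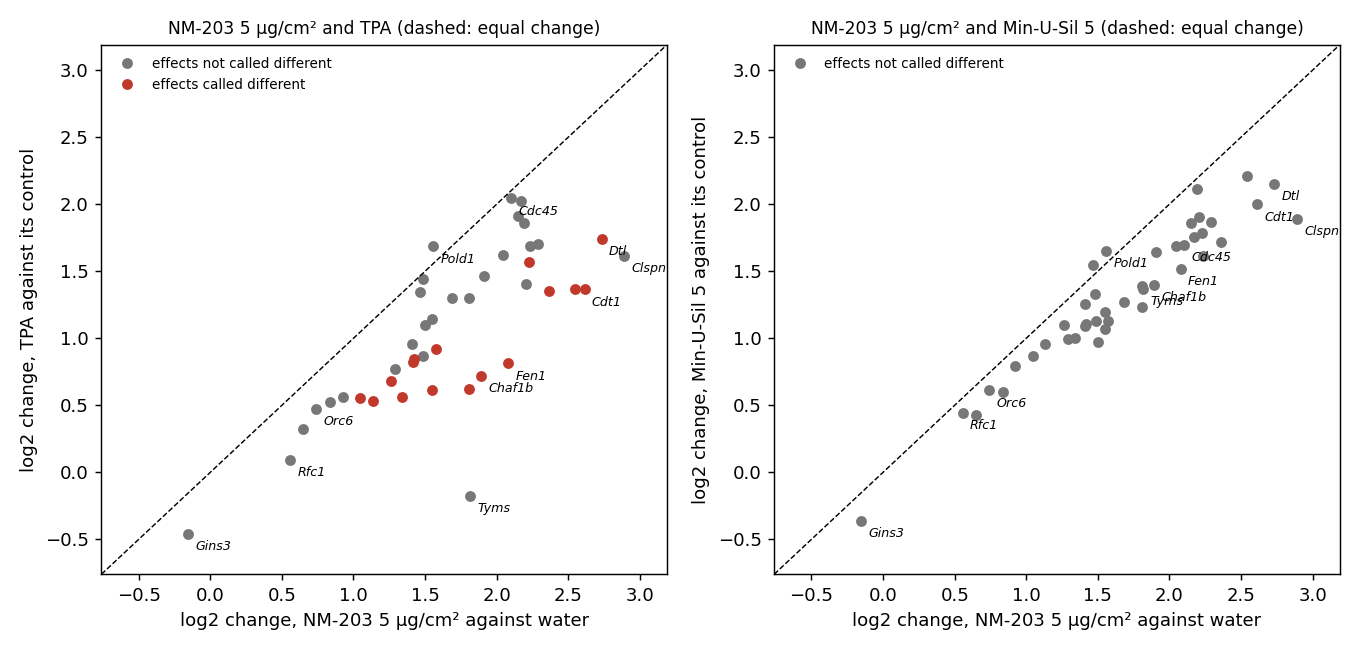
Log2 change of the 43 genes after NM-203 at 5 µg/cm² (x) against that with TPA (left, y) or Min-U-Sil 5 (right, y), each against its own control; the dashed line marks equal change and red points the 16 genes whose effects were called different. The points lie below the line for 42 genes with TPA and 41 with Min-U-Sil 5, as they do for 49.3% and 46.2% of all genes.

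A wider list of 48 other genes of replication and nucleotide metabolism was counted for context. After NM-203 at 5 µg/cm² 41 rose, 5 fell and 2 were not called, where 14% of all genes rose and 19.1% fell. With NM-203 at 2 µg/cm² 26 rose and 3 fell (16.2% and 8.85% of all genes). With Min-U-Sil 5 36 rose and 2 fell (11.6% and 13.9% of all genes), and with TPA 26 rose and 1 fell (4.89% and 6.78%). With DE 1 rose (0.557% of all genes), and at 1 µg/cm² of NM-203 limma called 0 (0.0431% of all genes higher). The largest rises at 5 µg/cm² were Ticrr (2.96 ± 0.20), a factor of origin firing, and Recql4 (2.75 ± 0.17), a helicase of replication initiation. With Min-U-Sil 5 Ticrr changed by 2.06 and Recql4 by 2.27, and with TPA by 1.93 and 1.62. The largest falls at 5 µg/cm² were Pold4 (-1.22 ± 0.13), the small accessory subunit of polymerase delta, Asf1a (-0.54 ± 0.17), a histone chaperone, and Tk2 (-0.46 ± 0.13), the mitochondrial thymidine kinase. The Asf1a call was lost in 5 of 21 alternatives (adjusted p up to 0.274) and the Tk2 call with arrays centred on the median (0.199). Pold4 thus fell in the comparison in which the delta subunits Pold1 and Pold2 rose.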

How the data were processed

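RNA of Bhas 42 cells was measured on 36 single-colour Agilent arrays, 4 per group. Per the file headers, the authors obtained each spot's intensity from Agilent Feature Extraction 11.0.1.1, with background subtraction and spatial detrending inside the array and no scaling between arrays. A deposited value table, used as an alternative, gives log2 values centred per probe, with column medians of -0.254 to 0.269 and an unstated scaling. Its columns for 3 of the Min-U-Sil 5 arrays (replicates 1 to 3) fitted another replicate of that group best, so the scanner files' numbering was kept.

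Values are log2 processed intensity after subtracting the 75th percentile of each array's non-control spots, without 74 to 380 outlier spots per array. Unversioned accessions named 32994 of 56605 probes through RefSeq's gene table (GRCm38.p6), all with 1 symbol, and 23611 stayed unnamed here. Between 55.1% and 76.2% of probes per array were well above background. The 40679 probes above it on at least 3 of 4 arrays in a group were kept, and the brightest stood for each of 32492 gene names. One limma model (version 3.58.1, eBayes after lmFit) covered the 9 groups and left 27 residual degrees of freedom. The model was checked on simulated data; R was version 4.3.3 and the data.table package version 1.17.8. Figures were drawn with Python 3.11.15, matplotlib 3.10.9 and pandas 2.3.3.

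The members and lists were chosen with earlier results of these data known. Array values were printed for the 2 members of each role (all where a role had 3 or fewer) with the largest called change after NM-203 at 5 µg/cm², and for members that fell or were not called there. Tyms, Chaf1a, Pold1 and Pcna were shown in full after their values were seen. From the wider list the 3 largest rises and falls were to be named, of which 1 is not reported here. No label states that equal replicate numbers pair samples, so numbers were not used as pairs. Deviations of same-numbered replicates correlated at -0.60 to 0.33, both extremes from the Min-U-Sil 5 comparison, where different numbers gave -0.60 to 0.62. The pattern varied: with TPA and DMSO the range was 0.01 to 0.24, against -0.16 to 0.13 for different numbers. For NM-203 at 2 and 1 µg/cm² it was 0.02 to 0.20, against -0.32 to 0.07. For NM-203 at 2 µg/cm² and water it was -0.03 to 0.29, against -0.39 to 0.17. For NM-203 at 5 µg/cm² and water it was -0.16 to 0.02, against -0.20 to 0.29. Alternatives covered scaling, background correction, filters, probe choice, slide, scan day and replicate blocks, array weights and leaving out arrays. Precision is limited by there being 4 arrays per group.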

Additional observations from a re-analysis of the deposited data

Results flagged for a closer look

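A single array stood apart from the other 3 of its group in 16 of the 234 groups of 4 values examined (Dixon's test at the 95% level), and chance flags about 1 in 20 groups. The groups examined included those of Tyms, Chaf1a and Pold1, which were shown in full after their values were seen. The count therefore cannot be judged against that rate. The widest gaps were Tyms in DMSO replicate 2 (7.54, the others 1.82 to 2.19), Pold1 in NM-203 2 µg/cm² replicate 2 (-2.79, the others 1.77 to 2.23) and Orc1 in DMSO replicate 1 (-2.38, the others -3.59 to -3.55). Among the controls, Cdt1 was low in water replicate 3 (1.51), Rrm2 was low in DMSO replicate 1 (0.38), Clspn was low in DMSO replicate 4 (-4.51), and Gins3 was low in replicate 3 of the Min-U-Sil 5 water (4.86, the others 4.93 to 4.94). In NM-203 at 1 µg/cm², replicate 1 was the high array for Rpa3 (2.25), Lig1 (2.65) and Chaf1a (0.79). In NM-203 at 2 µg/cm², replicate 1 was the high array for Lig1 (3.46) and Tk1 (1.94). At 5 µg/cm², Prim1 was low in replicate 4 (2.38) and Gins3 was high in replicate 1 (4.74). With Min-U-Sil 5, Pole was high in replicate 3 (2.53) and Chaf1a in replicate 2 (2.55).

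The effect of NM-203 at 5 µg/cm² differed from that of TPA, by limma's test of the difference, in 16 of the 43 genes, all with the larger effect for NM-203. The effect of Min-U-Sil 5 differed from that of TPA in 1 gene, Chaf1b.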

How the results depend on the processing

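Of the 43 genes, those called higher under any alternative numbered 26 to 38 after NM-203 at 2 µg/cm², 39 to 42 at 5 µg/cm², 36 to 41 with Min-U-Sil 5 and 30 to 39 with TPA. The calls that held in every alternative were 22 of 36, 39 of 41, 34 of 40 and 29 of 37. With normexp correction and quantile normalization the medians were 1.20 for Min-U-Sil 5, 0.86 for TPA and 1.31 for NM-203 at 5 µg/cm² against DE. Under that alternative 1 gene was called lower in each of the NM-203 5 µg/cm², Min-U-Sil 5 and TPA comparisons, 1 higher with DE, and 2 in Min-U-Sil 5 against TPA. Scan day as a block moved the NM-203 5 µg/cm² median to 1.72. For TPA 1 gene was lower with scan day as a block, with array weights and with probes above background on all 36 arrays. Array weights also gave 1 call for NM-203 at 1 µg/cm², 2 for DE, 2 for Min-U-Sil 5 against TPA and 1 for NM-203 at 5 µg/cm² against Min-U-Sil 5, and slide as a block gave 1 for DE. From 2 to 5 µg/cm² of NM-203, 23 genes were higher with slide as a block, 22 with scan day as a block and 20 in a fit to those groups alone, each with 0 lower, as with median centring. From 1 to 2 µg/cm², 9 were higher with median centring, 15 with scan day as a block and 0 in a fit to those groups alone. Median centring gave 7 genes for NM-203 against TPA and 0 for Min-U-Sil 5 against TPA, which was also 0 without the 6 arrays of slide 4, an alternative chosen after seeing the data. The cause was not tested.

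Leaving out 1 replicate at a time gave 34 to 38 genes higher and 0 to 1 lower after NM-203 at 2 µg/cm², 39 to 41 higher with medians of 1.55 to 1.72 at 5 µg/cm², 39 higher and 0 to 1 lower with Min-U-Sil 5, and 35 to 38 higher and 0 to 1 lower with TPA. From 2 to 5 µg/cm² the range was 30 to 39 and from 1 to 2 µg/cm² 20 to 32 higher and 0 to 1 lower, the fewest without replicate 1 of the 2 µg/cm² group. NM-203 against TPA ranged from 11 to 19.

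A few members named in the text changed sign. After NM-203 at 2 µg/cm² Orc6 became 0.29 with slide as a block, 0.12 with scan day, 0.24 with array weights and 0.47 without slide 4 (-0.47 to 0.47 leaving out 1 replicate). Gins3 became -0.015 with slide and -0.045 with scan day as a block. Pold1 became 1.02 with slide as a block, 0.014 with slide as a random block, 0.74 with scan day, 0.68 with array weights and 1.10 without slide 4 (-0.57 to 1.10 leaving out 1 replicate). Chaf1a became 0.054 with slide as a block, 0.19 with array weights and 0.035 without slide 4 (-1.24 to 0.16 leaving out 1 replicate). With TPA, Tyms became 0.58 with probes averaged, 0.27 with slide as a block, 0.059 with slide as a random block and 0.060 with array weights (-0.71 to 1.20 leaving out 1 replicate).

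With the replicate number as a block the counts of the 43 genes did not change (36 higher after NM-203 at 2 µg/cm², 41 at 5 µg/cm², 40 with Min-U-Sil 5 and 37 with TPA). No label states that the numbers pair samples.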
